A study of Rattus norvegicus with 6 samples.

Results

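The genes of the rat major histocompatibility complex (MHC), together with genes that load and regulate MHC molecules, were followed probe by probe in kidney RNA. A probe was a member where its RefSeq accession, taken without the version, was paired in a RefSeq gene table with a symbol that starts with RT1-, the prefix of the rat MHC, or with Cd74, B2m, Ciita, Tap2, Tapbp, Nlrc5, Calr or Pdia3. This gave 54 of the 30367 probes on the array, which stood for 45 of the 15168 named genes. Nlrc5, an activator of class I genes, had no matched probe, and 38 of the 67 RT1 symbols in the table had at least 1. The members were 11 class II probes of 9 genes, 36 probes of 29 class I and related genes, 5 probes of peptide loading genes, and 1 probe each of Cd74 and Ciita. Since 9 of the genes had several probes, each probe was kept apart.

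The 6 samples were kidneys of rats at 21 weeks of age, 3 labelled as diabetic and 3 as treated with Bailing Capsule, a preparation of fermented Cordyceps mycelium. By its title the study asks how this preparation affects gene expression in the kidney. Strain, sex and dose are not in the labels, nor is it stated there if the treated animals had diabetes, and a group of healthy untreated rats was not analysed here. Nothing beyond the replicate labels tells how the samples were taken, so p-values measure only the spread between these samples, which may be technical.

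Total RNA of each kidney was labelled with Cy3 and read on 1 single-colour Agilent array. A level is given below as log2 of the spot's processed intensity minus the 75th percentile of that array, so that 0 marks the 75th percentile and a level of -1 is a further halving. Apart from the summed levels of cell markers, levels of different probes were not compared. Every difference is Bailing Capsule minus diabetic. A probe was tested with limma where the scanner software found it well above background on all 3 arrays of at least 1 group. A difference was called at an adjusted p under 0.05, with Benjamini-Hochberg adjustment over all 19819 probes tested. On each array 65.0% to 73.7% of all probes and 40 to 42 of the 54 members were well above background, and the number of arrays limits the precision. The 10 kidney marker genes on the array, among them Umod of the thick ascending limb, Slc34a1 of the proximal tubule and Nphs1 of podocytes, were all tested, and limma called 0 of their 14 probes, with 0 at an unadjusted p under 0.05. By the scan times in the file headers, scan 1 held diabetic replicate 1 and the 3 Bailing Capsule arrays, and scan 2 held diabetic replicates 2 and 3. Scan and group were thus partly confounded, and with scan as a block the difference is the one within scan 1, which rests on a single diabetic array.

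Class I molecules pair a heavy chain with beta-2-microglobulin and show peptides from the cytosol, which the TAP transporter brings into the endoplasmic reticulum and tapasin, calreticulin and Pdia3 help to load. Class II molecules are heterodimers of an alpha and a beta chain (RT1-Ba with RT1-Bb, RT1-Da with RT1-Db1) that show peptides from endosomes. They travel with the invariant chain Cd74, and the DM and DO molecules edit their peptides. RT1 genes are highly polymorphic between rat strains, and the gene table's assembly is of the BN/NHsdMcwi strain. In the kidney, class II is best known from resident dendritic cells and macrophages and can be induced in tubule cells. Class II transcription depends on Ciita, a coactivator without DNA binding of its own, which is held at the promoter by the RFX complex on the X box and NF-Y on the Y box.

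The promoters of the classical class II chains are printed first, because the called differences lay in 2 of these genes and because these promoters carry the elements through which Ciita acts. The windows run from 250 bases before to 50 bases after the annotated start and come from RefSeq on build GRCr8, at chr20:4604069-4604368 on the minus strand for RT1-Bb, chr20:4560113-4560412 on the minus strand for RT1-Db1, chr20:4515165-4515464 on the plus strand for RT1-Da and chr20:4576807-4577106 on the plus strand for RT1-Ba. Each is written 5′ to 3′ on the gene's strand, and capitals mark the X box core ACNGATG and the Y box CTGATTGG, searched on both strands.
RT1-Bb: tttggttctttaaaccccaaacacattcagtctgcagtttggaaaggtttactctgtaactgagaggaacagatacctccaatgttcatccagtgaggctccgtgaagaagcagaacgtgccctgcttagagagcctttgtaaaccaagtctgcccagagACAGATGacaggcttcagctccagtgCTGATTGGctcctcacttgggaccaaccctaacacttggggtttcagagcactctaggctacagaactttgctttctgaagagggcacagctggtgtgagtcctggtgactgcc
RT1-Db1: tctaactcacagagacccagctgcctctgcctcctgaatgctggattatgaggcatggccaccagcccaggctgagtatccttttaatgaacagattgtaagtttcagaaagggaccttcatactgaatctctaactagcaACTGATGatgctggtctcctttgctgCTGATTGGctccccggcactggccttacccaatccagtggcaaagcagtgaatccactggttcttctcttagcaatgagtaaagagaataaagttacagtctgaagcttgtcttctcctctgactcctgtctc
RT1-Da: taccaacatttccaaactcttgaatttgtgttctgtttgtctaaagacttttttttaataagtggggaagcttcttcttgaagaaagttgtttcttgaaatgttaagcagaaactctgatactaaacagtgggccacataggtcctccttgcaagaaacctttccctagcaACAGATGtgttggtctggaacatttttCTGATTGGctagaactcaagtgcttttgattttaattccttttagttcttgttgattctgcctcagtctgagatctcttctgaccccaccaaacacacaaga
RT1-Ba: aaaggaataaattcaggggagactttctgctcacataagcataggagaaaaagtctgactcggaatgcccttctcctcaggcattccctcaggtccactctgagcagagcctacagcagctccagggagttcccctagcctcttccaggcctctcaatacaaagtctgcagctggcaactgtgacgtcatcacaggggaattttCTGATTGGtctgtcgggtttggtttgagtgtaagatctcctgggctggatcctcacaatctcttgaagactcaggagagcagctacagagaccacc
In RT1-Bb, RT1-Db1 and RT1-Da the X box core came first and the Y box followed, without overlap. Counted from the start, their first bases lay at -90 and -64 in RT1-Bb, at -109 and -83 in RT1-Db1 and at -79 and -52 in RT1-Da. In RT1-Ba the Y box stood at -46 and the letters of the X box core were not in this window. A promoter window was found for 38 of the 45 member genes and for 8 of the 9 class II genes. Of these 8, 5 held the X box core, 6 held the Y box and 3 held both. Over all 33469 promoters of the same length, 10.2% held the X box core, 3.5% the Y box and 0.29% both. These matches describe letters only. The RT1-Bb and RT1-Db1 promoters, whose genes had the called probes, and the RT1-Da promoter, whose gene had none, carried the same pair of elements.

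Of the 54 member probes 41 were tested, 37 of them well above background on all 6 arrays. Another 11 were not well above background on any array, and 2 (RT1-CE10 and RT1-CE15) were on some arrays only. Called differences were seen for 2 of the 41 tested members, or 4.88%, beside 0.303% of all tested probes. Both were lower in Bailing Capsule kidneys, a direction in which 0.187% of all tested probes were called. An unadjusted p under 0.05 was reached by 5 members, or 12.2%, beside 7.75% of all tested probes. The 2 groups did not overlap for 6 members, or 14.6%, beside 11.8% of all tested probes. The difference was below 0 for 31 of the 41 members, or 75.6%, beside 61.2% of all tested probes, and the median difference was -0.18 beside -0.083. In whole kidney tissue, fewer cells of a type and less RNA per cell cannot be told apart.

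The class II beta chain gene RT1-Bb was called lower in Bailing Capsule kidneys, at 1 of its 2 probes. Probe A_44_P552452 had levels of -0.84, 0.05 and -0.63 on the 3 diabetic arrays and of -7.20, -7.40 and -7.13 on the 3 Bailing Capsule arrays. Every Bailing Capsule array was far below every diabetic array, and the probe was not well above background on any of them. In processed intensity units, the signal was 153, 231 and 249 on the diabetic arrays and 1.52, 2.22 and 1.69 on the Bailing Capsule arrays. As the Bailing Capsule signal was not above background, the lowest signals well above background on those arrays were taken as a floor. Against this floor the probe was 36.5-fold lower. The floor is no strict limit, since a brighter probe can fail the mark. RT1-CE10 did so on Bailing Capsule replicate 3, at -5.87 beside a floor of -5.95. The fit gave -6.77 on the log2 scale (SE 0.29, n = 3 per group, limma adjusted p = 7.39e-06), which is taken against signals not above background and is no measure of size. The probe passed the filter through its diabetic arrays alone. These values belong to the probe: its sequence was not used here, so less RT1-Bb RNA and a different sequence at the probe's site cannot be told apart, and whether other RT1 copies match it was not tested. The same holds for the RT1-Db1 probes. Among all tested probes, 18 were well above background on every diabetic and no Bailing Capsule array and 65 the other way round, and RT1-Bb was the only member among them. With normexp background correction the fitted difference was -2.25, and within scan 1 it was -6.40. It was called under each of the 16 alternatives that kept the probe.

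The second RT1-Bb probe, A_64_P043911, which carries the same accession, did not go the same way. Its levels were -1.50, -0.82 and -1.31 on the diabetic arrays and -0.68, 0.01 and -0.94 on the Bailing Capsule arrays. The probe was well above background on all 6 arrays, and the groups overlapped at diabetic replicate 2 and Bailing Capsule replicate 3. The difference was 0.68 (SE 0.32), with a limma adjusted p of 0.67. One probe of RT1-Bb was thus dark on the Bailing Capsule arrays and the other was not.

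RT1-Db1, the beta chain of the other classical class II molecule, showed the second called difference, again at 1 of its 2 probes. Probe A_64_P134927 had levels of 3.41, 3.85 and 3.42 on the diabetic arrays and of 1.68, 1.24 and 1.14 on the Bailing Capsule arrays. The groups stood well apart and the probe was well above background on all 6 arrays. It fell by 2.21 on the log2 scale (SE 0.27, limma adjusted p = 0.00881), which is 4.62-fold lower. The call was lost with scan as a block (-2.06, limma adjusted p = 0.0771), within scan 1 (0.340), with no filter on dim probes (0.0843) and without diabetic replicate 2 (-2.06, 0.0692), while the size of the difference hardly moved. Probe A_64_P130578, with the same accession, had levels of -1.32, -0.81 and -1.14 on the diabetic arrays and of -1.51, -1.48 and -1.82 on the Bailing Capsule arrays. All 3 Bailing Capsule arrays were lower here too, by a narrow margin, with a difference of -0.51 (SE 0.26) and a limma adjusted p of 0.71.

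**Figure D1:**
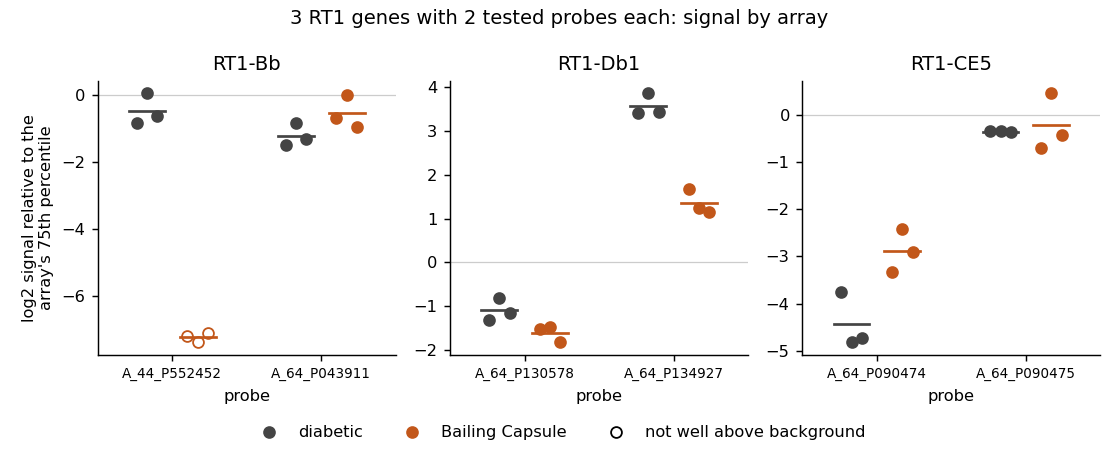
Log2 signal relative to the array's 75th percentile (vertical axis) for both probes (horizontal axis) of RT1-Bb, RT1-Db1 and RT1-CE5, with 1 point per array, a bar at each group mean and n = 3 per group; open circles are not well above background. For RT1-Bb the probe A_44_P552452 drops to between -7.40 and -7.13 on the Bailing Capsule arrays, while A_64_P043911 stays between -0.94 and 0.01.

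The unequal response of probes of a single gene was tested across the array with limma on the difference between the probes within each array, a test added after the disagreement of the RT1-Bb probes was seen, which it restates for that gene. Among 1756 pairs of tested probes of 1492 genes, the median size of the gap between the probes' differences was 0.204. Of all pairs 3 were called, or 0.171%, and 2 of the 6 member pairs were among them. The third pair belonged to Prima1, a membrane anchor of acetylcholinesterase outside the MHC, with a gap of -4.86. The RT1-Bb pair had a fitted gap of -7.45 (SE 0.33, limma adjusted p = 5.11e-05). This gap rests on Bailing Capsule signals not above background, so its size is not measured, and it was -2.69 with normexp. It was called under each of the 16 alternatives that kept both probes. The RT1-Db1 pair had a gap of 1.69 (SE 0.21, limma adjusted p = 0.0446), the 13th largest. That call was lost under 11 of 17 alternatives, among them scan as a block (limma adjusted p = 0.218) and leaving out any array other than Bailing Capsule replicate 1 (0.118 to 0.365). The RT1-CE2, RT1-A1 and RT1-S2 pairs had gaps of -0.23, -0.18 and 0.13.

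The other class II chains had smaller differences, and limma called none of them. RT1-Da, the alpha chain that pairs with RT1-Db1, had levels of 2.67, 3.33 and 2.81 on the diabetic arrays and of 2.79, 2.83 and 2.41 on the Bailing Capsule arrays. The groups overlapped, at a difference of -0.26 (SE 0.27). RT1-Ba, the alpha chain that pairs with RT1-Bb, was not well above background on any of the 6 arrays. The tested peptide editors had differences smaller than their SE, so no direction was resolved. RT1-DMa had levels of -4.31, -4.17 and -4.39 on the diabetic arrays and of -5.21, -3.65 and -4.86 on the Bailing Capsule arrays, with a difference of -0.28 (SE 0.38). Bailing Capsule replicate 1 was its lowest array, not well above background, and replicate 2 its highest. RT1-DMb had levels of -1.80, -0.89 and -1.25 against -1.51, -1.07 and -1.93, and differed by -0.19 (SE 0.32). RT1-DOb had levels of -4.45, -3.43 and -4.08 against -3.74, -4.09 and -4.42, and differed by -0.098 (SE 0.32). In both, diabetic replicate 2 was the highest array and the groups overlapped, and within scan 1 the differences turned to 0.30 and 0.37. RT1-DOa, the DO partner chain, and RT1-Ha, an alpha chain of the DP type, were not well above background on any array. Over the 8 tested class II probes of 6 genes, 7 were lower, or 87.5% beside 61.2% of all tested probes, and 1 was higher. Among the 7 lower ones, the called RT1-Bb probe and the RT1-DMa probe passed the filter through their diabetic arrays alone. Both probes of RT1-Db1 were also among the 7, so these counts do not give a direction for class II. Of the 8, 2 were called lower, beside 0.187% of all tested probes, and the median difference was -0.27 beside -0.083 over all tested probes.

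The positions of the members on chromosome 20 in the GRCr8 gene table place the called probes close together. Running along the chromosome, RT1-Da, RT1-Db1, RT1-Ba, RT1-Bb and RT1-DOb follow each other among the genes with a probe. RT1-Db1 and RT1-Bb thus flank RT1-Ba, whose probe was below background throughout. On the one side of the pair RT1-Da differed by -0.26, and on the other side RT1-DOb differed by -0.098 and the transporter gene Tap2 by -0.33. Most tested class I genes lie before this stretch, from RT1-M3-1 to RT1-CE2, and RT1-A2 and RT1-A1 lie after it.

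**Figure D2:**
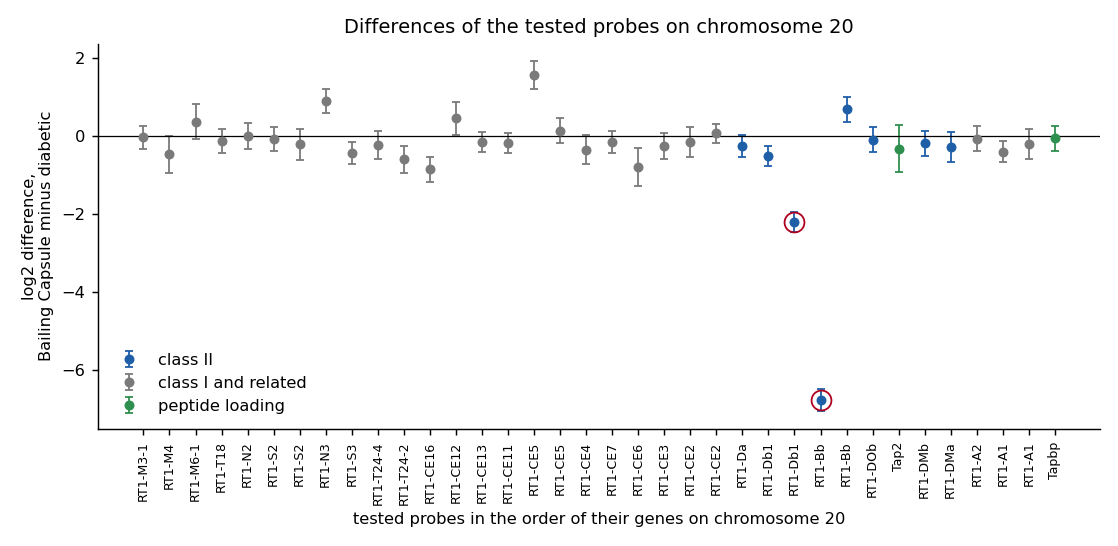
Log2 difference, Bailing Capsule minus diabetic (vertical axis), of each tested member probe on chromosome 20, in the order of the genes (horizontal axis), with bars of 1 SE and n = 3 arrays per group; red rings mark the called probes. One probe each of RT1-Db1 (-2.21) and RT1-Bb (-6.77) stands below 0, the latter fitted against signals not above background, while the neighbours RT1-Da and RT1-DOb lie at -0.26 and -0.098.

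Class I and related genes showed no called difference. Of their 36 probes 26 were tested, for 22 of 29 genes. Of these 20 were lower, or 76.9% beside 61.2% of all tested probes, and 6 were higher. The median difference was -0.16 beside -0.083, and 21 probes lay within 0.5 of 0 on the log2 scale. limma called 0 of the 26, beside 0.303% of all tested probes. An unadjusted p under 0.05 was reached by 3, beside 7.75% of all tested probes, which were RT1-CE5, RT1-N3 and RT1-CE16. Since RT1 class I genes are near-identical copies, a probe may take signal from more than 1 of them, and values for single genes are uncertain for that reason.

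RT1-CE5, a class I gene of the RT1-C/E/M region, again differed between its probes. Probe A_64_P090474 had levels of -3.76, -4.82 and -4.73 on the diabetic arrays and of -3.32, -2.43 and -2.90 on the Bailing Capsule arrays. The groups did not overlap, with diabetic replicate 1 nearest to the Bailing Capsule arrays. The difference was 1.56 (SE 0.35), with an unadjusted limma p of 0.00125 and an adjusted p of 0.143. It was called without diabetic replicate 1 (1.89, limma adjusted p = 0.0230) or without Bailing Capsule replicate 1 (1.78, 0.0394), and was 0.88 within scan 1 and 0.52 with normexp. Probe A_64_P090475 had levels of -0.34, -0.35 and -0.36 against -0.70, 0.46 and -0.42, and a difference of 0.13 (SE 0.32). Here the 3 diabetic arrays were nearly equal and lay inside the range of the Bailing Capsule arrays. The gap between the probes was 1.42 (SE 0.32), with a limma adjusted p of 0.249.

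RT1-N3 and RT1-CE16 differed in opposite directions. RT1-N3, a nonclassical class I gene, had levels of -1.82, -2.06 and -2.08 on the diabetic arrays and of -1.59, -0.51 and -1.15 on the Bailing Capsule arrays. All Bailing Capsule arrays were higher, at a difference of 0.90 (SE 0.30) with an unadjusted limma p of 0.0143 and an adjusted p of 0.395. RT1-CE16 had levels of 2.69, 2.24 and 2.15 against 1.01, 2.03 and 1.46. All Bailing Capsule arrays were lower, replicate 2 only just, at a difference of -0.86 (SE 0.31) with an unadjusted limma p of 0.0200 and an adjusted p of 0.462.

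For 2 further class I genes only 1 of 2 probes was well above background. RT1-M6-1 probe A_64_P003255 had levels of 1.48, 0.64 and 1.04 on the diabetic arrays and of 0.32, 2.24 and 1.70 on the Bailing Capsule arrays, a difference of 0.37 (SE 0.45). Its Bailing Capsule arrays held both the lowest and the highest value. The second RT1-M6-1 probe was not well above background on any array, at levels from -7.46 to -6.37. RT1-T18 probe A_64_P102807 had levels of -0.48, -0.49 and -0.57 against -1.20, -0.09 and -0.64, a difference of -0.13 (SE 0.30). Its second probe was not well above background on any array either, at levels from -7.26 to -6.06. Both RT1-M1-5 probes and the probes of RT1-M1-2, RT1-M1-4, RT1-M2 and RT1-M5 were likewise below that mark on all 6 arrays.

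The class I probes varied more among the Bailing Capsule arrays than among the diabetic ones, with a larger SD there for 19 of the 24 tested probes with a value on every array, beside 55.9% of all such probes. For these 24, Bailing Capsule replicate 1 was the lowest of the 6 arrays for 14, or 58.3%, as it was for 17.6% of all tested probes with every value. Bailing Capsule replicate 2 was the highest for 14, or 58.3%, as it was for 20.4% of all such probes. RT1-A1, a classical class I gene, had levels of 2.12, 2.08 and 1.99 on the diabetic arrays and of 1.31, 2.13 and 1.53 on the Bailing Capsule arrays at probe A_64_P032913. Its second probe had levels of 4.11 and 3.97 on diabetic replicates 1 and 3, where replicate 2 was left out as an outlier spot, and of 3.12, 4.39 and 3.97 on the Bailing Capsule arrays. At both probes Bailing Capsule replicate 1 was the lowest and replicate 2 the highest array. Relative to each probe's diabetic mean, which by construction puts the diabetic arrays around 0, the median class I level was 0.052, -0.0017 and -0.070 on the diabetic arrays and -0.46, 0.28 and -0.23 on the Bailing Capsule arrays. These Bailing Capsule arrays thus lay on both sides of the diabetic ones. Their order was the same under the other scalings and sources tried, with replicate 1 at -0.49 to -0.28 and replicate 2 at 0.19 to 0.42. The 75th percentile used for scaling (log2 intensity) was 8.10, 7.80 and 8.59 on the diabetic arrays and 7.80, 8.55 and 7.89 on the Bailing Capsule arrays. Among the latter it was lowest on replicate 1 and highest on replicate 2 as well, and its part in the spread was not tested.

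**Figure D3:**
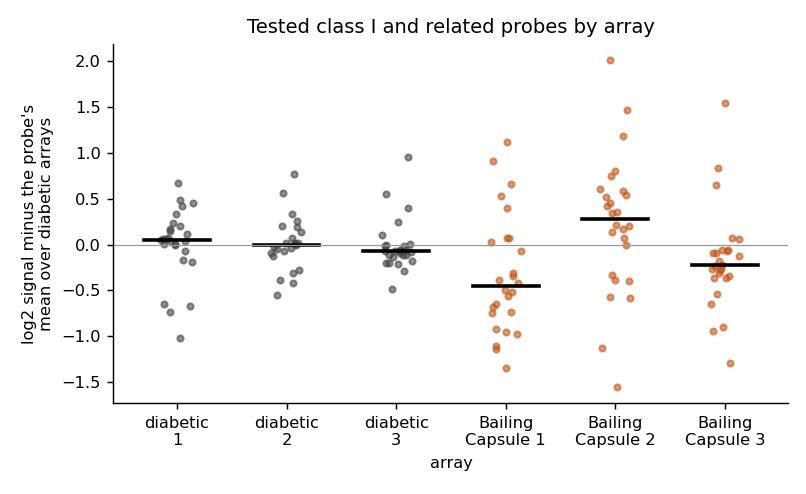
Log2 level minus the probe's mean over the diabetic arrays (vertical axis) for the 26 tested class I and related probes on each of the 6 arrays (horizontal axis), with 1 point per probe and a bar at the array's median. The diabetic arrays centre on 0 by construction, and the bars of the Bailing Capsule arrays lie at -0.46, 0.28 and -0.23.

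Among the peptide loading genes none was called. B2m, the light chain of class I molecules, had levels of 5.81, 6.71 and 5.95 on the diabetic arrays and of 6.44, 5.42 and 5.78 on the Bailing Capsule arrays. The groups overlapped at a difference of -0.28 (SE 0.34), and Bailing Capsule replicates 1 and 2 stood in the reverse order to the class I median. Tap2, a subunit of the peptide transporter, had levels of -1.97, 0.65 and 0.64 against -0.34, -0.998 and -0.34. Diabetic replicate 1 was the lowest of the 6 arrays, and diabetic replicates 2 and 3, both of scan 2, were the highest. Its difference was -0.33 (SE 0.61), it was 1.42 within scan 1, and only 0.722% of tested probes had a larger residual SD. Tap1, the partner subunit, was not tested, since its probe was well above background on 1 array only. Tapbp, or tapasin, had levels of -3.18, -2.55 and -2.94 on the diabetic arrays and of -3.31, -2.38 and -3.18 on the Bailing Capsule arrays, with a difference of -0.067 (SE 0.31). The Bailing Capsule arrays covered a slightly wider range than the diabetic ones. Calr, or calreticulin, had levels of 0.31, 0.48 and 0.53 against 0.56, -0.03 and 0.14, a difference of -0.22 (SE 0.26). Pdia3, an oxidoreductase of the loading complex, had levels of 0.22, 0.16 and 0.61 against 0.19, 0.68 and 0.66, a difference of 0.19 (SE 0.26). Both genes had overlapping groups. The median difference of the 5 loading genes was -0.22, and it was 0.23 with scan as a block and 0.10 without diabetic replicate 2.

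Cd74 and Ciita, which act with class II, did not follow the called class II probes. Cd74, the invariant chain, had levels of 0.95, 1.28 and 0.86 on the diabetic arrays and of 1.02, 1.82 and 0.78 on the Bailing Capsule arrays. Its Bailing Capsule arrays held the highest and the lowest value, and the difference was 0.18 (SE 0.31, limma adjusted p = 0.97). Ciita, the class II coactivator, had levels of -1.76, -1.36 and -1.97 against -1.31, -1.83 and -1.83. Its groups overlapped at a difference of 0.042 (SE 0.28, limma adjusted p = 0.99).

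**Figure D4:**
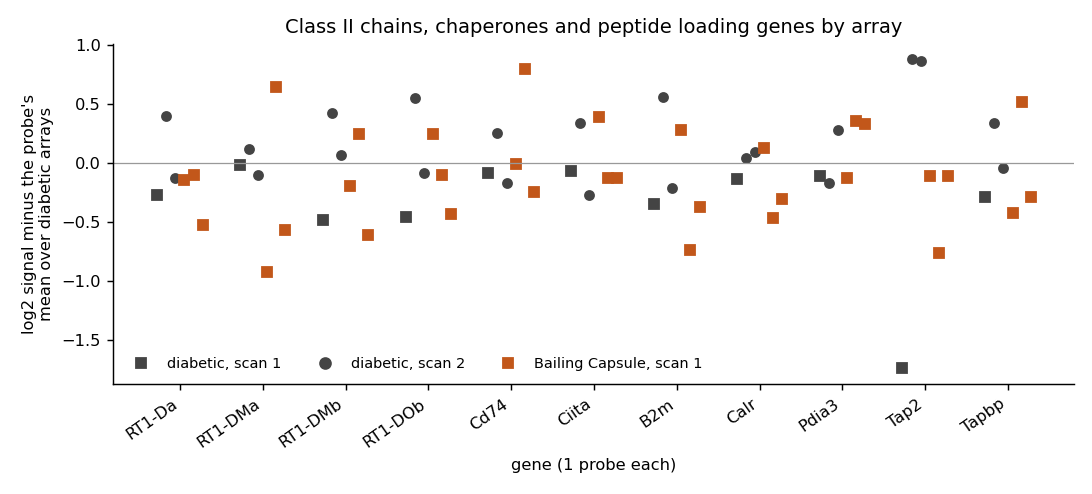
Log2 level minus the probe's mean over the diabetic arrays (vertical axis) for the single probes of 4 class II genes, Cd74, Ciita and the 5 loading genes (horizontal axis), with 1 point per array; squares are scan 1 and circles scan 2. The groups overlap for each gene, and Tap2 on diabetic replicate 1 is the lowest point.

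The scan separated members about as often as other probes. Both arrays of scan 2 lay above all 4 arrays of scan 1 for 7 of the 39 tested members with every value, or 17.9%, beside 15.7% of all such probes, and below them for 2, or 5.13%, beside 4.26%. The 7 were RT1-CE6, RT1-T24-2, RT1-M4, Tap2, the called RT1-Bb probe and both RT1-Db1 probes, and the 2 were RT1-CE5 and RT1-N3. For RT1-Bb and RT1-Db1 the called direction held within scan 1, where diabetic replicate 1 stood above each Bailing Capsule array.

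Other genes of antigen processing and class II control were followed as a list of 42 genes, of which 34 were tested with 38 probes. limma called 0 of these probes, 17 were higher and 21 lower, and the median difference was -0.034. Beside this, 61.2% of all tested probes were lower, 7.75% reached an unadjusted p under 0.05 and 0.303% were called, with a median of -0.083. A single probe of the list reached an unadjusted p under 0.05, that of Marchf8, a ubiquitin ligase that removes class II from the cell surface. It had levels of -5.13, -4.65 and -4.79 on the diabetic arrays and of -4.21, -3.78 and -4.18 on the Bailing Capsule arrays, a difference of 0.79 (SE 0.26, limma adjusted p = 0.37). The groups did not overlap, but this probe passed the filter through its Bailing Capsule arrays alone, which favours a higher value. A second Marchf8 probe, which was well above background on every array, differed by 0.20. The next lowest p-values belonged to Ifngr2, a chain of the interferon gamma receptor, at -0.40, and to Irf1, an interferon-induced factor that acts on class I genes, at -0.71 for one probe and -0.26 for its second. The X box factors Rfx5, Rfxap and Rfxank differed by -0.024, 0.025 and -0.28. The immunoproteasome subunits Psmb8, Psmb9 and Psmb10 differed by -0.30, -0.11 and -0.19. Neither group of genes held a called member.

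Interferon-induced genes, which as a class include many MHC genes, were followed as a list of 25 genes with 27 tested probes. Of these 21 were higher and 6 lower, with a median difference of 0.79, and 17 reached an unadjusted p under 0.05, 15 of them higher. Among these 15, the Ifit3 and Oas1a probes and a Usp18 probe passed the filter through their Bailing Capsule arrays alone, which favours higher values in these counts. Of all tested probes 61.2% were lower, 7.75% reached an unadjusted p under 0.05 and 0.303% were called, with a median of -0.083. In the interferon list limma called 1 probe, that of Usp18, which removes the ubiquitin-like protein Isg15 from its targets. Its levels were -3.96, -4.71 and -4.83 on the diabetic arrays and -2.66, -1.93 and -2.26 on the Bailing Capsule arrays. The groups did not overlap, and the probe was 4.65-fold higher (log2 2.22, SE 0.31, limma adjusted p = 0.0184). A second Usp18 probe was well above background on no diabetic array. It was 2.21-fold brighter on the Bailing Capsule arrays, against a diabetic floor set as for RT1-Bb, and was not called (limma adjusted p = 0.15). Irf7, a factor of the type I interferon response, had levels of -0.26, -1.84 and -2.66 on the diabetic arrays and of 1.11, 1.83 and 1.30 on the Bailing Capsule arrays, with a limma adjusted p of 0.0509. The groups did not overlap, and diabetic replicate 1 lay nearest to the Bailing Capsule arrays. Over all the gene lists together the 1 called gene became 0 with scan as a block and without diabetic replicate 2, diabetic replicate 3, Bailing Capsule replicate 2 or Bailing Capsule replicate 3. It became 7 genes without diabetic replicate 1 and 4 without Bailing Capsule replicate 1.

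Markers of leukocytes and endothelium were measured beside these results, and limma called none of them. The leukocytes include the macrophages and dendritic cells from which class II is best known in the kidney. Of 15 tested macrophage and dendritic cell probes of 12 genes 12 were higher, with a median difference of 0.25. Of all tested probes 61.2% were lower and 7.75% reached an unadjusted p under 0.05, with a median difference of -0.083. C1qc and C1qa, subunits of complement C1q, differed by 0.98 and 0.79, and Clec9a, a receptor of dendritic cells, by 0.65, each at an unadjusted limma p under 0.05. Signals of the 15 probes were also summed, and the log2 of the sum is called the summed level. It was 6.05 to 6.30 on the diabetic arrays and 5.90 to 6.72 on the Bailing Capsule arrays. Such sums weight the brightest probes most. Here most of the signal came from Lyz2, at 5.54 to 5.85 against 5.32 to 6.27. Mrc1, Xcr1 and a second Clec9a probe were well above background on no array. Of 8 tested T and NK cell probes of 7 genes 5 were higher. Among these 5, a Gzmb probe and the Nkg7 probe passed the filter through their Bailing Capsule arrays alone. The Lck probe, which was lower, passed through its diabetic arrays alone. The summed level of the 7 probes with a value on every array was 0.32 to 0.85 against 0.11 to 0.63. The sum leaves out Cd3g, which lacked a value on diabetic replicate 2. It was brighter than the sum, at 2.72 and 3.36 on the other diabetic arrays against 2.77 to 3.60. Gzmb, a protease of cytotoxic cells, had a probe well above background on no diabetic array. That probe was 1.67-fold brighter on the Bailing Capsule arrays, against a diabetic floor set as for RT1-Bb. The other Gzmb probe differed by -0.66, and each of them had an unadjusted limma p under 0.05. Cd2, Cd5, Cd8a and Klrb1a were well above background on no array. For B cells 2 probes were tested and Cd22 and Cd79b were well above background on no array, with a summed level of -1.16 to -0.47 against -0.83 to -0.56. The 5 pan-leukocyte probes had a median difference of 0.092 and a summed level of 1.99 to 2.43 against 2.17 to 2.46. The 5 endothelial probes had a median difference of -0.38 and a summed level of 5.29 to 5.87 against 4.91 to 5.72. Most of that signal came from Kdr, at 5.20 to 5.80 against 4.79 to 5.64. These ranges overlapped in every list, and their part in the RT1-Bb and RT1-Db1 results was not tested.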

How the data were processed

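Kidney RNA was labelled with Cy3, per the labels. Agilent Feature Extraction 11.0.1.1 gave for each spot, per the file headers, a processed intensity, background subtracted and detrended, with flags for outliers and for spots well above background (other columns). The deposited table holds log2 values, with medians of 5.05 to 5.06 per array and a correlation of 0.983 to 0.994 with the scanner values of the same array. This table served as an alternative only, since how it was made is not given in the sources used here.

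Each array had 42877 spots besides 1377 controls. Outlier spots, 597 to 1091 per array, were left out, which took the value of 1 array from 2 tested members (RT1-A1 and RT1-T24-4). Log2 processed intensities of a probe's spots were averaged, and the array's 75th percentile was subtracted. A probe was well above background where at least 0.5 of its spots were. limma 3.58.1 in R 4.3.3 (lmFit, eBayes) compared the groups, with Benjamini-Hochberg adjustment. The RefSeq table (GRCr8) gave symbols to 18005 probes, and 12362 had none here. The array design names build rn4, so coordinates are given for printed promoters only.

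Members, lists and tests were chosen with earlier results of these data known. The rule for named genes gave array values for class II, loading and regulator probes, members at an unadjusted p under 0.05 and genes whose probes disagreed; of other lists, the called genes, those at an unadjusted p under 0.05 and otherwise the lowest p-values. Rfx and immunoproteasome genes, Prima1 and RT1-A1 were named outside it, as were markers below background. Some genes that the rule could name are left out. The planned slide block used the scan, since the headers give scan times. The planned mean spot signal was a median spot signal in the files, which entered normexp with an offset of 50. Alternatives were normexp, the deposited log2 table, quantile and median scaling, other filters, scan and replicate blocks, other variance models, a minimum fold of 1.2, the removal of each array in turn and 1 probe per accession. Each test was checked on simulated data.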

Additional observations from a re-analysis of the deposited data

How the results depend on the processing

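The called RT1-Bb probe stayed lower and called under each alternative that kept it, with fitted values of -6.95 to -2.25, the smallest in size with normexp. The called RT1-Db1 probe stayed lower at -2.37 to -2.06 under all 18 alternatives and lost its call under 5 of them. No called probe changed sign, whereas 13 of the 21 uncalled members recomputed one by one changed sign under at least 1 alternative. The 2 called members became 1 with no filter, with a filter on all 6 arrays, with scan as a block, within scan 1, with the replicate block and with 1 probe per accession, and 1 to 3 when an array was left out. Over all tested probes, 60 calls became 122 with normexp, 8 with no filter, 37 with the filter on all 6 arrays, 10 within scan 1 and 8 with the replicate block, and 19 to 208 when an array was left out. The 1 called list gene became 3 with normexp or with a trend and robust prior, 2 with the filter on all 6 arrays or 1 probe per accession, and 0 with quantile scaling, the deposited table, no filter, scan as a block, within scan 1 or the replicate block, and 0 to 7 when an array was left out. The median of the class I probes ran from -0.41 to 0.032, that of class II from -0.49 to -0.13, that of the loading genes from -0.39 to 0.23, and that of Cd74 and Ciita from 0.00060 to 0.26. The cause of these shifts was not tested. Samples that share a replicate number did not deviate together (correlations of -0.18, -0.14 and 0.02), so the replicate block stands here only. For probes below background only a fold against a floor is given, and 3 arrays per group limit the precision.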
